A study of Mus musculus with 16 samples.

Results

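The genes described here are 10 liver genes of lipoprotein assembly, Apoa1, Apoa2, Apoa4, Apoa5, Apob, Apoc1, Apoc2, Apoc3, Apoe and Mttp. They were chosen by name and not by a rule on any measured value, though with earlier results of these data known. Each matched 1 row of the 30463 genes in the authors' deposited table, and all 10 had an adjusted p there.

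The RNA came from whole liver of wild-type C57BL/6N mice, taken at 14 weeks of age. At 2 weeks of age the mice had been injected with vehicle or with diethylnitrosamine (DEN), a liver carcinogen, and from 6 weeks they ate control diet or a diet labelled 60% high fat. This gave 4 groups of 4 samples, namely vehicle with control diet, DEN with control diet, vehicle with high fat diet and DEN with high fat diet. The values below are those of 1 comparison that the authors made, whose sides the authors' deposited table does not name, so a gene is described as higher on its positive or on its negative side. The 16 columns of values per library carry codes that match no sample label and were not used, so no value per sample, depth per sample or spread within a group is given.

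Apolipoproteins are the protein coat of lipoproteins, the particles that carry triglyceride and cholesterol in blood. Hepatocytes build very low density lipoprotein (VLDL) around 1 molecule of apolipoprotein B, which the microsomal triglyceride transfer protein, encoded by Mttp, loads with lipid in the endoplasmic reticulum. The smaller apolipoproteins move between particles and steer lipases, receptors and the formation of high density lipoprotein (HDL).

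None of the 10 genes passed the test. At an adjusted p below 0.05, 0 of 10 were called in the authors' deposited table, where 6.57% of all 16288 tested genes were. At an unadjusted p below 0.05 there were 3 of 10 (Apoa5, Apoa2 and Apoe), beside 19.0% of all tested genes. In sign, 5 genes were positive and 5 negative. The log2 fold changes ran from -0.38 to 0.30 with a median of -0.0066, beside -0.0044 over all tested genes. The median absolute log2 fold change was 0.17 for the 10 genes and 0.18 over all tested genes. All 10 intervals, which are 95% normal intervals built on the standard error (SE) that the authors deposited, lay within 2-fold in either direction, and 7 of them included 0.

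The genes for the structural protein of VLDL and for its lipid loading, Apob and Mttp, showed the following values. Apob, which encodes the structural protein of VLDL, had a mean normalized count of 151305 and a log2 fold change of -0.24 ± 0.15 (SE, adjusted p of 0.396) in the authors' deposited table. Its interval reached from -0.53 to 0.053, so an Apob transcript level up to 1.04-fold higher on the positive side or 1.44-fold higher on the negative side lay inside it. Mttp, the lipid-loading protein, had a mean normalized count of 7183 and a log2 fold change of -0.049 ± 0.15 (SE, adjusted p of 0.909) in the authors' deposited table. Both estimates were negative as deposited, and both turned positive, at 0.051 for Apob and 0.040 for Mttp, when the statistic was freed of its dependence on GC content, length and abundance (by splines fitted over all tested genes). No direction is therefore given for either gene.

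**Figure D1:**
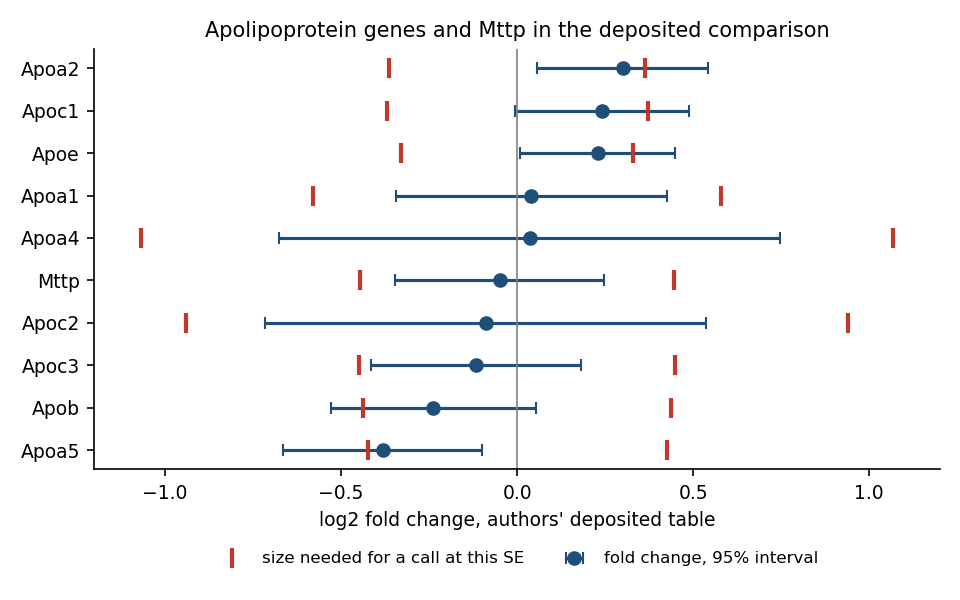
Log2 fold change of each of the 10 genes in the authors' deposited comparison (points) with its 95% normal interval (bars), and the size that would have been called at that gene's SE (red ticks). Every point lies between its ticks, with Apoa5 at -0.38 and Apoa2 at 0.30 closest to them.

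Among the regulators of triglyceride breakdown, Apoa5 had the smallest p of the 10 genes. Apoa5, whose protein promotes lipolysis by lipoprotein lipase, had a mean normalized count of 21984 and a log2 fold change of -0.38 ± 0.14 (SE, adjusted p of 0.0902) in the authors' deposited table, or 1.30-fold higher on the negative side. It would have been called at a threshold of 0.10, where 9.75% of tested genes were. Apoc3, whose protein inhibits lipolysis and remnant uptake, had a mean normalized count of 22445 and a log2 fold change of -0.12 ± 0.15 (SE, adjusted p of 0.751) in the authors' deposited table. These 2 genes of opposed function lie in the same cluster, had like mean counts and were both negative in sign, and neither was called.

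Apoc2 encodes the activator of lipoprotein lipase. It stood apart from the others by its level, with a mean normalized count of 15.9 in the authors' deposited table, while the other 9 genes had at least 7183. Its log2 fold change was -0.089 ± 0.32 (SE, adjusted p of 0.922) in the authors' deposited table. In the GENCODE release M21 annotation, 646 of its 813 exonic bases (79.5%) are also exonic in Gm44805, a gene on the same strand that runs across Apoc2 and its neighbour Apoc4. Only 4.69% of the exonic bases of Apoc4 are shared in this way, and Apoc4 had a mean normalized count of 8999 in the authors' deposited table (it was singled out after its values were seen). Over the 167 unshared bases alone, the Apoc2 count would correspond to 95.4 per kilobase (kb). Gm44805 itself had no row in the authors' deposited table, so no count can be given for it. Whether it was part of the authors' annotation is not known. The sources used here do not say how the authors' counting treated reads that fit 2 genes, and the part of the overlap in the low Apoc2 count was not tested. The Apoc2 value is uncertain for this reason, and without Apoc2 the median log2 fold change of the other 9 genes was 0.036.

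Apoa2, Apoa1, Apoe and Apoc1, grouped here as genes of HDL and remnant proteins, were positive in sign in the authors' deposited table. None was called, and the intervals of Apoa1 and Apoc1 included 0. The grouping was not fixed beforehand, so no weight is placed on the shared sign. Apoc3, which also acts on remnants, and Apoc2 are described above and were negative, at -0.12 and -0.089. Apoa2, the second most abundant HDL protein, had a mean normalized count of 70432 and a log2 fold change of 0.30 ± 0.12 (SE, adjusted p of 0.133) in the authors' deposited table, the highest of the 10, or 1.23-fold. Apoa1, the main HDL protein, had a mean normalized count of 191653 and a log2 fold change of 0.041 ± 0.20 (SE, adjusted p of 0.946) in the authors' deposited table. The interval of Apoa1 ran from -0.35 to 0.43, and that of Apoa2 from 0.057 to 0.54. Whether 2 of these genes differ from each other could not be tested, because the table gives no covariance between genes.

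Apoe, the ligand for receptor uptake of remnants, had the highest mean normalized count of the 10, at 369269 in the authors' deposited table, and a log2 fold change of 0.23 ± 0.11 (SE, adjusted p of 0.238), or 1.17-fold. Its neighbour Apoc1, which encodes a small protein of VLDL and HDL, had a mean normalized count of 54624 and a log2 fold change of 0.24 ± 0.13 (SE, adjusted p of 0.282) in the authors' deposited table. Apoe is also made by macrophages and stellate cells. Of 10 macrophage markers, 8 were negative in sign in the authors' deposited table, with a median log2 fold change of -0.50, 6 at an unadjusted p below 0.05 and 1 called (Timd4, -0.76 ± 0.26, adjusted p of 0.0494). Their mean normalized counts lay between 13.8 (Gpnmb) and 2130 (Marco). Of 10 stellate cell markers, 0 were called in the authors' deposited table, 0 had an unadjusted p below 0.05, and their median was -0.071. The part of these cells in the Apoe value was not tested, and in whole liver fewer cells of a type and less RNA per cell cannot be told apart.

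Apoa4 encodes a protein of chylomicrons and VLDL that liver makes in variable amounts. Its log2 fold change was 0.036 ± 0.36 (SE, adjusted p of 0.975) at a mean normalized count of 9867 in the authors' deposited table, and it turned to -0.0017 with that dependence removed. The SE was the widest of the 10 genes. Of the 325 tested genes whose mean count was within 2-fold of that of Apoa4, 93.8% had a smaller SE, with a median of 0.15. An estimate for Apoa4 below 2.09-fold would not have been called at this SE. On the opposite strand, exons of Gm10680 and Gm47528 cover 69.8% of the exonic bases of Apoa4. The sources used here do not state the strand setting of the counting, and without it reads of both genes cannot be told apart. Exons on the opposite strand also cover 20.8% of Apoa5 and 9.49% of Mttp. The genes that overlap Apoa4 were small in counts, with 0.282 for Gm10680 and 27.6 for Gm47528 as mean normalized counts in the authors' deposited table. Because the treatment of reads that fit 2 genes is not stated, these counts set no limit on reads that Apoa4 may have lost.

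Enterocytes also make Apoa4, Apoa1 and Apob. Of 10 enterocyte markers, 8 were found in the authors' deposited table, and 5 of these had a mean normalized count below 2, among them Sis at 0.0866, Lct at 0.210 and Vil1 at 1.65. Fabp2, a fatty acid binding protein that liver also expresses, had a mean of 1496 and was called at 1.44 ± 0.20 (log2, SE, adjusted p of 8.7e-10) in the authors' deposited table. Slc5a1, a glucose transporter gene, had a mean of 12.8 and was called at 0.99 ± 0.27 (log2, SE, adjusted p of 0.00818) in the authors' deposited table. The part of such cells in the apolipoprotein values was not tested. The hepatocyte markers matched the labelled tissue, with Alb at 1079857 and all 10 markers at 12999 or more as mean normalized counts in the authors' deposited table. Of these 10, 1 was called positive (Fabp1) and 2 negative (Tat and Ahsg). Of 6 adipocyte markers 5 were found in the authors' deposited table, 3 of them (Retn, Plin1 and Adipoq) with a mean normalized count below 2. Adipoq stood lowest, at 0.387. Cidec was called at 2.88 ± 0.54, and Fabp4 at 0.73 ± 0.31 was not (log2, SE, adjusted p of 0.151 for Fabp4). The part of adipocytes in these values was not tested.

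**Figure D2:**
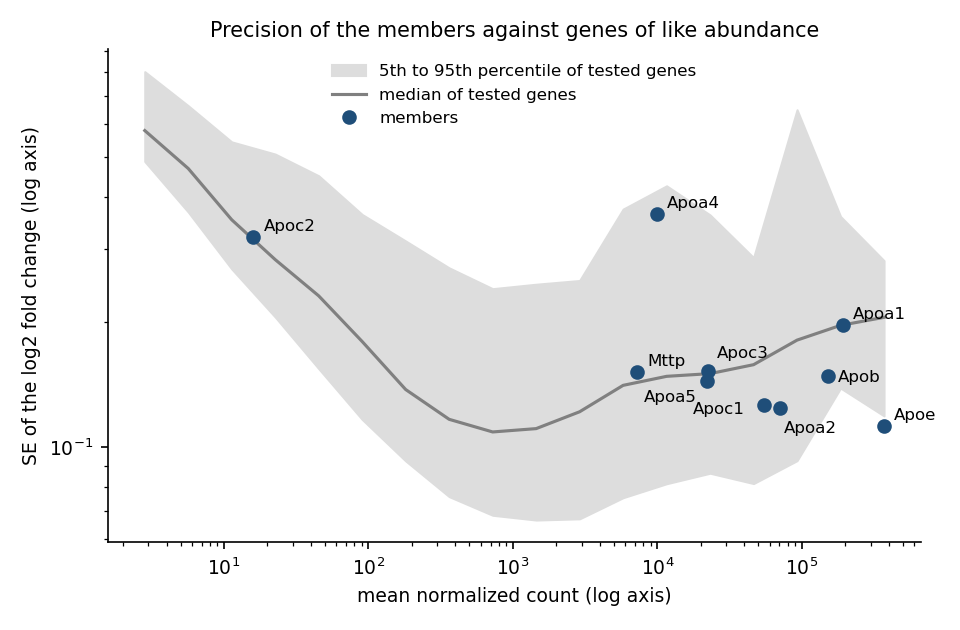
SE of the log2 fold change against the mean normalized count in the authors' deposited table, on log axes, for the 10 genes (points) and for all tested genes (line, median, and shading, 5th to 95th percentile in bins of 2-fold). Apoa4 lies high in the band at 0.36, and Apoe lies below it at 0.11. The bin of Apoe holds only 6 genes, so its smallest SE falls below the 5th percentile by construction.

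Apoe had the smallest SE of the 10, and all 10 genes with a mean count within 2-fold of it had a larger one, with a median of 0.25. For Apoa2, 16.7% of 48 such genes had a smaller SE, for Apob 16.7% of 30 and for Apoc1 20.6% of 63. The share was near the middle for Apoc2 (46.6%), Apoa5 (48.6%), Apoa1 (50%), Apoc3 (54.7%) and Mttp (58.6%). The differences that would have been called, at the smallest absolute statistic among called genes (2.94), ran from 1.26-fold for Apoe to 2.09-fold for Apoa4. These sizes hold for that threshold in this comparison.

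Compared per length, the levels spanned a wide range. The mean normalized count per kb of exon was 172717 for Apoe, 155059 for Apoa1 and 131159 for Apoa2. It was 73419 for Apoc1, 22135 for Apoc3 and 10859 for Apob. Below these stood Apoa5 at 8717, Apoa4 at 5436, Mttp at 1157 and Apoc2 at 19.6, all per kb and computed from the authors' deposited table. Apoe ranked 5 and Apoa1 7 among 30372 genes with a length, and 6 of the 10 genes were in the top 100. Apoe was 149-fold above Mttp per kb. Without length, Apob ranked 17 by mean count, at 13934 exonic bases. The 10 genes held 4.40% of the sum of mean normalized counts over all genes, with Apoe alone at 1.81%. Because no spread per sample is available, which neighbours in this order differ was not tested.

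**Figure D3:**
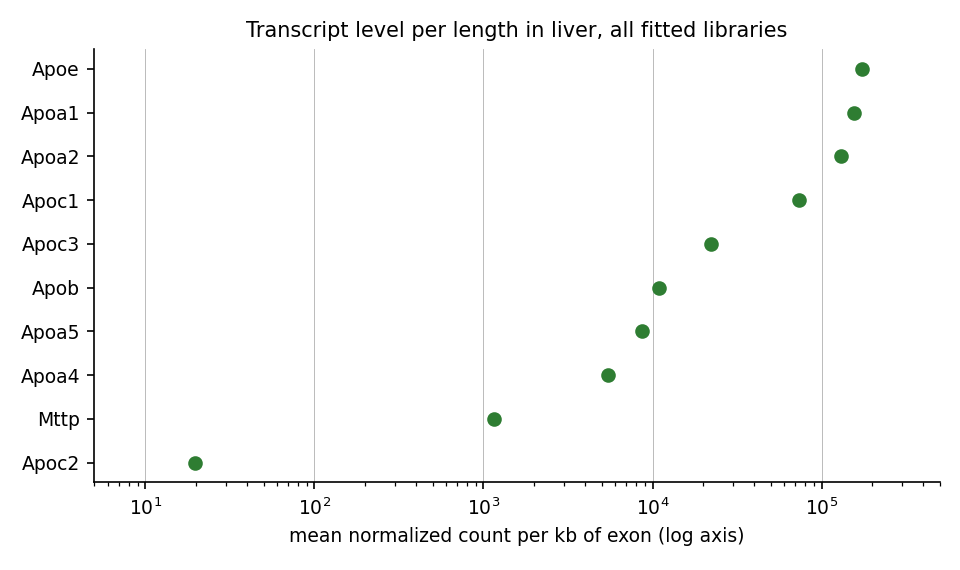
Mean normalized count per kb of exon for the 10 genes, on a log axis, from the authors' mean over their libraries. Apoe, Apoa1 and Apoa2 lie at 131159 or above, and Apoc2 lies at 19.6, apart from the rest.

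The genes share positions that the choice by name did not use. In GRCm38, Apoa1, Apoc3, Apoa4 and Apoa5 lie within 43.3 kb on chromosome 9, from 46228580 to 46271919. Apoc2, Apoc1 and Apoe lie with Apoc4 within 27.6 kb on chromosome 7, from 19671579 to 19699188. Apoa2 lies alone on chromosome 1 (171225054 to 171226379), Mttp on chromosome 3 (138089854 to 138144968) and Apob on chromosome 12 (7977648 to 8016835). On chromosome 7 the estimates of Apoe, Apoc1, Apoc4 and Apoc2 were 0.23, 0.24, 0.11 and -0.089 (log2) in the authors' deposited table, and none was called. Of 5 other tested genes within 50 kb of that cluster, Apoc4 included, 0 were called and 1 (Relb, 0.78 ± 0.31, log2, SE) had an unadjusted p below 0.05 (p = 0.0136) in the authors' deposited table. On chromosome 9, 1 of 4 other tested genes within 50 kb was called. It was Sik3, a kinase gene that ends upstream of Apoa1, at -0.37 ± 0.088 (log2, SE, adjusted p of 0.00134) in the authors' deposited table. Zpr1, the neighbour of Apoa5, stood at -0.28 ± 0.16 (log2, SE, adjusted p of 0.332) in the authors' deposited table. Bud13 at -0.047 ± 0.15 and Gm47528 at 0.27 ± 0.74 (log2, SE) were not called either in the authors' deposited table.

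**Figure D4:**
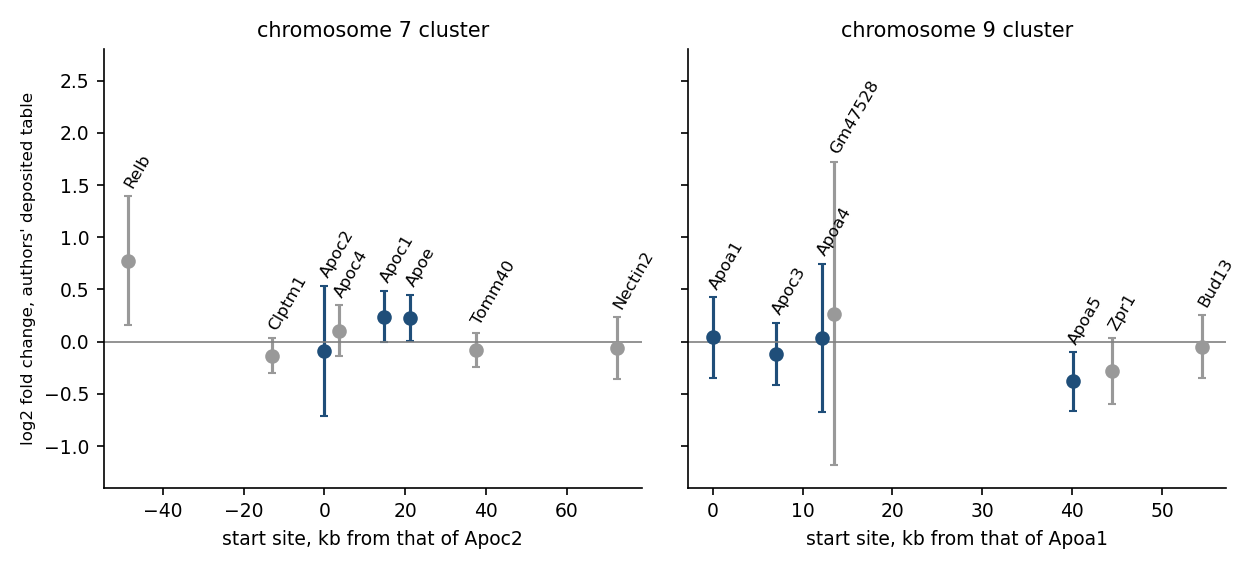
Deposited log2 fold change, with 95% normal intervals, of tested genes in both apolipoprotein clusters against the distance of their start sites from that of Apoc2 or Apoa1, in kb. Members are blue and other genes grey; Apoe and Apoc1 lie at 0.23 and 0.24, and Sik3 is not drawn because its start lies 216 kb upstream.

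The promoter windows of the cluster genes are printed because neighbours in them differ widely in level. RefSeq windows on GRCm38.p6, from 250 bases before to 50 after a start site, were at hand for 8 of the 10 genes, and where a gene had several, the one nearest its GENCODE start was taken. Capitals mark matches, on either strand, to 8 short motifs. For the box that binds the general transcription factor TBP the letters were TATAAA, and for the single site of nuclear receptors such as RXR partners they were AGGTCA. The HNF4 motif was searched as CAAAGTCCA and the HNF1 single site as GTTAAT. For the C/EBP factors TTGCGCAA was searched, and as a variant of it TTGCAAAA. The core of the cAMP response element was searched as TGACGT, and the E-box of helix-loop-helix factors as CACGTG.
Apoa1, chr9:46228380-46228679, plus strand: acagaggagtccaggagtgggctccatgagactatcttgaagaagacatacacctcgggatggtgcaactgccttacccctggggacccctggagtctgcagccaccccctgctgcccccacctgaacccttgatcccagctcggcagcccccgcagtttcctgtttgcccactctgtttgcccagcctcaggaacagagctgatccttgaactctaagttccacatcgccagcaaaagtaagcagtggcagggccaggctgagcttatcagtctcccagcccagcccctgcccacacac
Apoa4, chr9:46240594-46240893, plus strand: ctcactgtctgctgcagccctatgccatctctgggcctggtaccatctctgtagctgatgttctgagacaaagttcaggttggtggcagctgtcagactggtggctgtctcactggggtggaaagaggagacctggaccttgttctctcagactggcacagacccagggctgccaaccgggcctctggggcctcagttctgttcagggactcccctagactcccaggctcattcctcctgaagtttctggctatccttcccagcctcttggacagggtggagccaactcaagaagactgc
Apoa5, chr9:46268383-46268682, plus strand: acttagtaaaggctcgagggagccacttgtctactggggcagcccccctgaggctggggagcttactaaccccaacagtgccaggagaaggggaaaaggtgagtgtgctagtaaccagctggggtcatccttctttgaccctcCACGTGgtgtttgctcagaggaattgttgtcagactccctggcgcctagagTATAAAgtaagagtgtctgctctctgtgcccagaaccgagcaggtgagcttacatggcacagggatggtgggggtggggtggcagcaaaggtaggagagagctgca
Apoc2, chr7:19677892-19678191, minus strand: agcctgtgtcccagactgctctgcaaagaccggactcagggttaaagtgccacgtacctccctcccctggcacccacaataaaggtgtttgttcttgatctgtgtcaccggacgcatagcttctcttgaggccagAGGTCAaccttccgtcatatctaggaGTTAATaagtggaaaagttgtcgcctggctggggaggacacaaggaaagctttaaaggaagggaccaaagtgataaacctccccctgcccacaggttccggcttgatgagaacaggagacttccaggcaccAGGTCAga
Apoe, chr7:19699139-19699438, minus strand: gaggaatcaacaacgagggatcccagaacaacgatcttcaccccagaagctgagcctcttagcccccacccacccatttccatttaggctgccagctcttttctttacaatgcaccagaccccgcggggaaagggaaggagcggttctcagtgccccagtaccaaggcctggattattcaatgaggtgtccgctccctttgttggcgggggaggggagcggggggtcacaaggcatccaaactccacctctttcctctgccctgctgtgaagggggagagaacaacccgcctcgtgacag

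TATAAA was found in 3 of the 8 windows (Apoa2, Apoa5 and Apob), beside 13.6% of all 32851 windows. In Apoa5 it began 56 bases before the start site, in Apob 60 bases before it and in Apoa2 212 bases before it. From another RefSeq start of Apoa5, whose window was not taken, the same match began 31 bases before. The E-box was found in Apoa5 alone of the 8 windows, 107 bases before the start, beside 7.15% of all windows. AGGTCA occurred in Apoc2 alone, at 2 places, beside 16.3% of all windows, and GTTAAT also in Apoc2 alone, beside 7.10%. TGACGT was found in Mttp alone, beside 7.51%. CAAAGTCCA (0.475% of all windows), TTGCGCAA (0.183%) and TTGCAAAA (1.09%) matched none of the 8. The windows of Apoa1, Apoa4 and Apoe printed above held none of the 8 motifs. Windows and distances refer to the RefSeq start. It lay downstream of the GENCODE start by 148 bases in Apoa4, 50 in Apoa1, 29 in Apob and 1550 in Mttp. These windows therefore hold less sequence upstream of the GENCODE start, and that of Mttp holds none. A match describes letters in a window of 300 bases and does not show a bound site.

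The other genes of the pathway were followed in 4 lists. Over all tested genes, 3.67% were called positive and 2.90% negative. The list of other apolipoprotein genes also holds genes that are not apolipoprotein genes in the strict sense, namely Lcat, Lrpap1, Apobr, Apoo and Apool. Of its 19 tested genes, 2 were called positive and 1 negative in the authors' deposited table, with a median log2 fold change of -0.13. Apom, which carries sphingosine 1-phosphate on HDL, was called at -0.66 ± 0.16 (log2, SE, adjusted p of 0.00226) with a mean normalized count of 3406 in the authors' deposited table. Saa4, a constitutive serum amyloid A of HDL, was called at 0.53 ± 0.16 (log2, SE, adjusted p of 0.0227) in the authors' deposited table. Apool was called at 0.39 ± 0.082 (log2, SE, adjusted p of 0.000162) in the authors' deposited table, and despite its name it encodes a protein of mitochondrial cristae. The 4 most abundant uncalled genes of this list were Saa2, Saa1, clusterin (Clu) and Apoh. For Apoh and Clu the authors' deposited table gave -0.18 ± 0.099 and -0.13 ± 0.18 (log2, SE). The acute phase genes Saa1 at 0.079 ± 0.64 and Saa2 at 0.085 ± 0.70 (log2, SE) were not called either in the authors' deposited table, and as near-identical copies they may share reads.

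For the machinery that assembles and exports VLDL, 1 of 43 tested genes was called positive and 3 negative in the authors' deposited table, with a median of 0.083 and 28 positive in sign. Tm6sf2, an endoplasmic reticulum protein needed for full lipidation of VLDL, was called at -0.77 ± 0.26 (log2, SE, adjusted p of 0.0494) in the authors' deposited table. Mia3, which loads large cargo into export vesicles, was called at -0.32 ± 0.11 (log2, SE, adjusted p of 0.0462) in the authors' deposited table. Sec24b, a cargo adaptor of COPII vesicles, was called at -0.32 ± 0.072 (log2, SE, adjusted p of 0.000465) in the authors' deposited table. Ces1g, a carboxylesterase, was called at 1.02 ± 0.25 (log2, SE, adjusted p of 0.00278) in the authors' deposited table. Ces1 copies resemble one another, which makes this value uncertain. P4hb, the partner subunit of Mttp, stood at 0.21 ± 0.17 (log2, SE, adjusted p of 0.527) in the authors' deposited table. The 4 most abundant uncalled genes of the list were P4hb, Hspa5, Hsp90b1 and Ces3a. For Hspa5, Hsp90b1 and Ces3a the authors' deposited table gave 0.18 ± 0.37, -0.26 ± 0.36 and 0.40 ± 0.22 (log2, SE). The calls of Tm6sf2 and Mia3 lay close to the threshold and were lost with Benjamini-Hochberg adjustment over all genes of the table (adjusted p of 0.0912 and 0.0854).

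Clearance, lipase and HDL handling genes gave 1 call of 23 tested, positive, with a median of -0.085 in the authors' deposited table. It was Angptl8, a fed-state inhibitor of lipoprotein lipase, at 0.77 ± 0.23 (log2, SE, adjusted p of 0.0171) in the authors' deposited table. This call was lost once the dependence on GC content, length and abundance was removed (Benjamini-Hochberg adjusted p of 0.0864). Lrp1, Lcat and Abca1 were among the 4 most abundant uncalled genes of the list. For these genes the authors' deposited table gave -0.21 ± 0.22, -0.13 ± 0.11 and 0.11 ± 0.21 (log2, SE).

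Of 41 tested transcription factors and coregulators of apolipoprotein genes, 2 were called positive and 1 negative in the authors' deposited table, with a median of -0.019. Srebf1 and Pparg, regulators of lipid synthesis and storage, were called at 1.41 ± 0.23 (adjusted p of 5.3e-07) and 1.26 ± 0.25 (adjusted p of 3.3e-05), and the coactivator gene Ppargc1a at -1.30 ± 0.22 (adjusted p of 5.9e-07), as log2 and SE in the authors' deposited table. Hnf4a, a nuclear receptor that drives many apolipoprotein genes, stood at -0.28 ± 0.11 (log2, SE, adjusted p of 0.0910) in the authors' deposited table. Cebpa at 0.25 ± 0.16, Rxra at -0.054 ± 0.093 and Creb3l3, a liver factor that activates Apoa4, at 0.049 ± 0.13 (log2, SE) were not called in the authors' deposited table. Of all calls in the 4 lists, those of Srebf1, Pparg and Ppargc1a passed when the authors' statistics were scaled down by their median absolute deviation (1.44), and the other 8 did not.

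**Figure D5:**
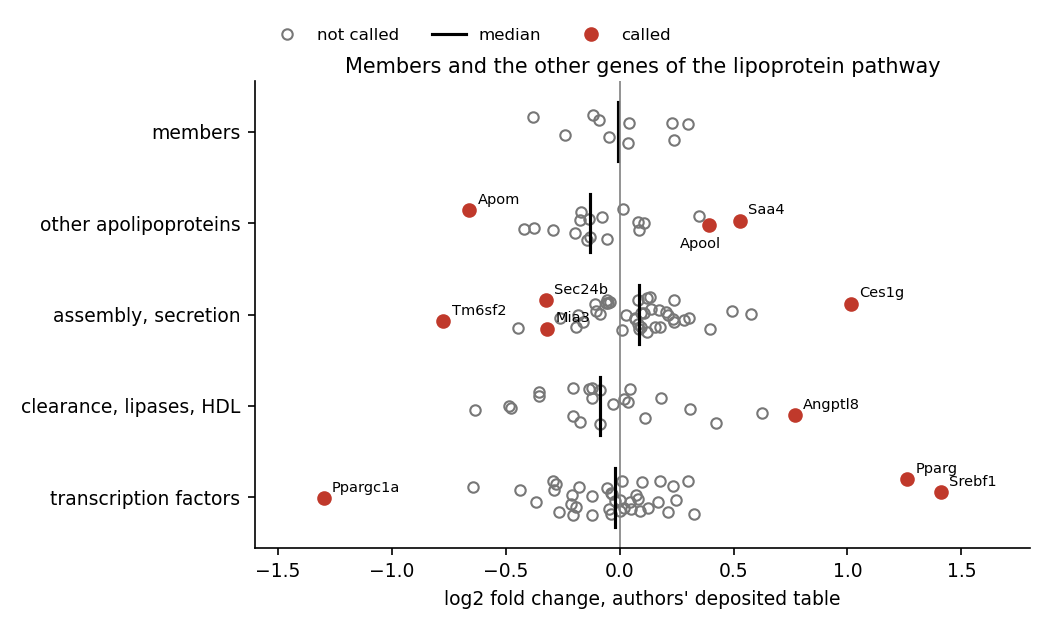
Deposited log2 fold change of the 10 members and of the tested genes of 4 other lists, 1 point per gene, with called genes filled and named and the median as a bar. The members lie between -0.38 and 0.30 with 0 called, and the lists hold 3, 4, 1 and 3 called genes.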

How the data were processed

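Liver RNA sequencing was deposited as 1 table for 16 samples. FastQC, Trimmomatic, HISAT2, HTSeq 0.11.1 and the build GRCm38 are named, without role, in the submitters' processing notes. Per the file headers, the authors' values are a mean normalized count (a signal, never negative), a log2 fold change with its SE (log2), a test statistic (a score), and a p-value with its adjusted p-value. Recomputed, the statistic equals fold change over SE, and the adjusted p-value is Benjamini-Hochberg over the 16288 tested genes (lowest mean count 2.95). The sources used here do not state the model, samples and sides. The 16 library columns match no label and were not used, so the planned fit by group was not run.

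Calls are the authors' adjusted p below 0.05, and intervals are 95% normal. Lengths, overlaps and positions came from GENCODE M21 (30372 genes matched), and analyses used Python 3.11.15 with scipy 1.17.1 and statsmodels 0.14.6. Adjustment and calling were tested on simulated statistics. Named genes are the members, called genes of the lists and, uncalled, the 4 most abundant of each, of which 1 is not reported here. The members and lists were chosen with earlier results of these data known. Alternatives were other thresholds, adjustments, count minimums, a scaled or recentred statistic, and one freed of a spline trend (4 degrees of freedom each for GC content, length and abundance, 6.12% of its variance). The labels do not say that each sample is a separate animal, so p-values measure only the spread between samples.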

Additional observations from a re-analysis of the deposited data

How the results depend on the processing

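Across 9 alternatives, 0 members were called except at a threshold of 0.10, which called 1 (Apoa5). A minimum mean count of 100 dropped Apoc2, so 9 members were tested there. The smallest adjusted p of any member under any alternative was 0.0665, for Apoa2 when dependence on GC content, length and abundance was removed. That setting reversed the sign of Apoa4 (-0.0017), Apob (0.051) and Mttp (0.040), all uncalled, and gave 2 calls among clearance genes. Of all tested genes 1070 were called, with 491 at a threshold of 0.01, 185 with Holm's adjustment and 142 with the scaled statistic. The list of other apolipoprotein genes fell from 3 calls to 1 (Apool) with Holm and 0 scaled. Assembly genes fell from 4 to 2 at 0.01, to 2 when adjusting over all genes, and to 0 with Holm or scaled. With dependence on GC content, length and abundance removed they fell to 3. Mia3 was lost there (Benjamini-Hochberg adjusted p of 0.0779) and Tm6sf2 was kept (0.0122). Clearance genes went from 1 to 0 at 0.01, with Holm or scaled, and to 3 at 0.10. Recentring lost Tm6sf2 (adjusted p of 0.0501). The causes were not tested. No paired analysis was possible because the library columns match no label, and for the same reason no replicate could be left out.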
